A study of Mus musculus with 12 samples.

Results

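The AOS by busulfan interaction in mouse liver, that is the change with AOS in busulfan-treated mice minus the change with AOS in mice without busulfan, was examined across genes. Every gene with at least 10 reads in 3 or more of the 12 libraries was a member, which kept 12979 of the 17871 genes in the table, and the genes were then sorted by their pattern over the 4 groups. Livers came from male ICR mice (spelled IRC in the labels, with the tissue given as cells) that were 3 weeks old at the start. In the BA10 group, mice received busulfan once by injection at 40 mg/kg and then AOS by gavage at 10 mg/kg every day for 5 weeks. In the BA0 group, the same busulfan dose was followed by water. The A10 group received AOS at 10 mg/kg without busulfan, and the A0 group received water alone. All groups were gavaged for 5 weeks, and each group had 3 libraries. The interaction answers a question that a comparison of BA10 to BA0 alone does not, namely whether AOS acted on a gene differently after busulfan.

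AOS are alginate oligosaccharides, short chains of uronic acids cut from alginate, a polysaccharide of brown algae. Busulfan is an alkylating drug that crosslinks DNA and is given before bone marrow transplantation. Immediate-early genes, which lead the results, need no new protein for their transcription. Kinase cascades and calcium act on factors already bound at their promoters, and their mRNAs rise and decay within an hour. In liver they respond to growth factors, cytokines, feeding and stress.

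The libraries held 16439485 to 18174565 reads. Hepatocyte transcripts were abundant. In each library 12 of 12 hepatocyte markers in the table were at 26.5 RPKM or more, with Alb at 24686 to 46489 RPKM. The markers Cd3e of T cells and Ly6g of neutrophils stayed at or under 0.41 RPKM. A0 replicates 1 and 2 stood apart from the other libraries. Transcript length and GC content accounted for 22.5% and 14.8% of the variance of their deviations, against 0.333% to 6.38% in the other 10 libraries, and their TMM factors were 0.851 and 0.879 against 0.970 to 1.08. Values without these libraries, or with the length and GC trends removed, are therefore given beside the results. BA0 replicate 2 carried pancreas transcripts, at a summed 442 CPM (counts scaled to the library total times its TMM factor) against 13.7 to 33.3 CPM elsewhere. The labels do not say that each library is a separate mouse, so the p-values measure the spread between these libraries, part of which may be technical.

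The change with AOS differed between busulfan-treated and untreated livers for few genes. By the quasi-likelihood test of edgeR, 7 of 12979 genes were called at an adjusted p under 0.05 (0.0539% of the genes tested), 4 with a higher (0.0308%) and 3 with a lower (0.0231%) change in the busulfan livers. The higher genes were Egr1, Junb, Ier2 and Jund, all of them transcription factor or immediate-early genes. The lower genes were the macrophage receptor gene Cd163 and the lung genes Scgb1a1 and Sftpc. At an unadjusted p under 0.05 there were 2006 genes (15.5%), 919 with a positive and 1087 with a negative interaction (8.38%). In the same fit 6 genes were higher (0.0462%) and 1 lower (0.0077%) in BA10 compared to BA0, and 267 were higher (2.06%) and 193 lower (1.49%) in A10 compared to A0, 460 in all (3.54%). The count in A10 compared to A0 was unstable. It was 1701 without A0 replicate 3, 1 to 8 without any other library and 2 with the trends removed. The fall to 1 to 8 was also seen where the library left out was of BA0 or BA10, outside this comparison. Without A0 replicate 3 the interaction was called higher in 103 and lower in 149 genes. The median interaction over all genes was -0.05 on the log2 scale. The count was 168 higher and 104 lower by DESeq2, and 5 and 3 by limma voom, so the number of calls rests on the tool. With A0 replicate 3 as the only A0 library, 2 genes remained called, Ier2 and Scgb1a1.

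**Figure D1:**
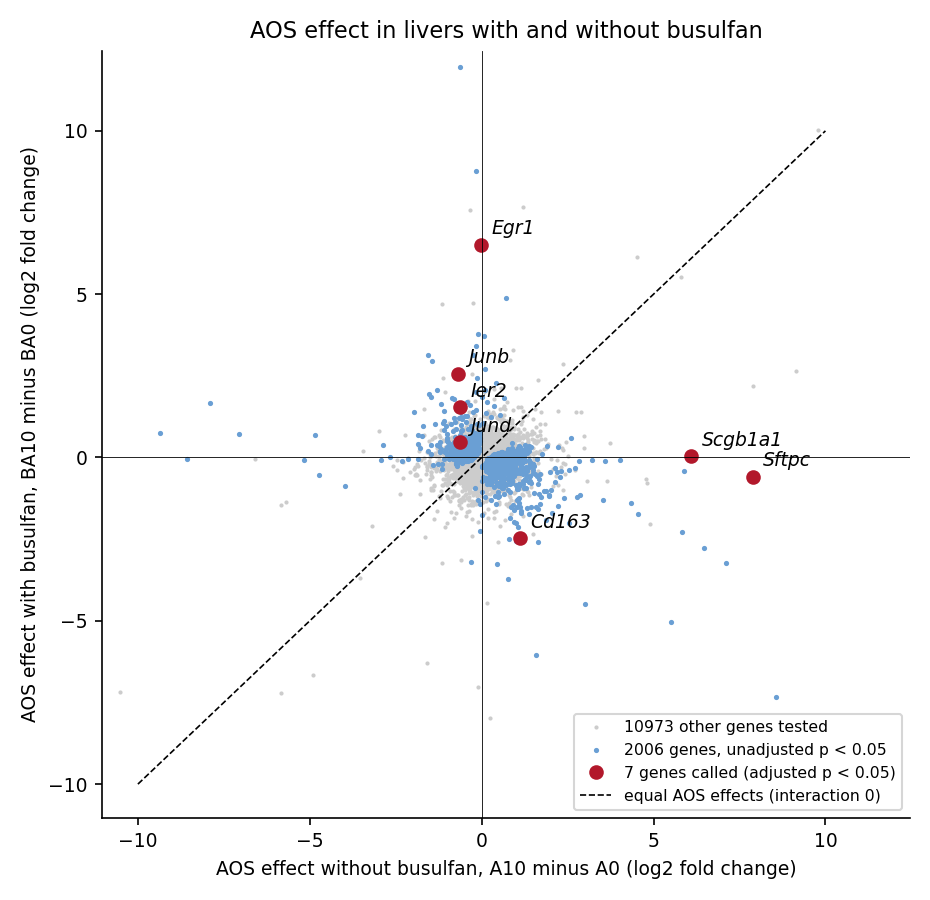
Log2 fold change with AOS in busulfan livers (BA10 minus BA0, vertical axis) against that without busulfan (A10 minus A0, horizontal axis) for 12979 genes, with 2006 genes at unadjusted p under 0.05 in blue, 7 called genes in red and equal effects on the dashed line. Egr1 lies at 6.51 on the vertical axis, while Scgb1a1 lies at 6.09 on the horizontal axis, and the position of Sftpc depends on the fit because it has no reads in A0.

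Egr1, a zinc finger transcription factor gene induced by growth factors (gene 13653), was high in the BA10 livers alone. It was at 251, 126 and 178 CPM in BA10 and at 1.11, 2.2 and 2.75 CPM in BA0. In A10 it was at 2.84, 2.41 and 9.24 CPM, and in A0 at 6.69, 4.84 and 3.15 CPM. The lowest BA10 library was thus far above the highest of the 9 others, while A10 and A0 overlapped. The interaction was 6.52 on the log2 scale (SE 0.73, adjusted p = 0.00541 by edgeR), made of a change of 6.51 in BA10 compared to BA0 and of -0.01 in A10 compared to A0. It stayed called whichever library was omitted (6.2 to 7.40) and after removal of the trends (6.51, adjusted p = 0.00379). With A0 replicate 3 as the only A0 library the adjusted p was 0.381.

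Junb, which encodes a subunit of the AP-1 transcription factor (gene 16477, chromosome 8, 84974484 to 84978718 of mm10), crossed over between the groups. It was at 27.2, 32.0 and 19.1 CPM in BA10 and at 2.97, 5.63 and 4.65 CPM in BA0. Without busulfan it was at 5.74, 7.35 and 9.88 CPM in A10 and at 12.3, 12.7 and 11.9 CPM in A0. The libraries of neither pair overlapped, and the order was opposite, with BA10 above BA0 and A10 below A0. A pair of such opposite separations was seen in 189 of the 12979 genes (1.46%). The interaction was 3.24 (SE 0.36, adjusted p = 0.00541 by edgeR), from a called change of 2.56 in BA10 compared to BA0 (SE 0.26, adjusted p = 0.00297). The change of -0.68 in A10 compared to A0 was not called (SE 0.25, adjusted p = 0.127). With the trends removed the interaction was 2.92 (adjusted p = 0.00834) and the levels put Junb among the genes that differ in BA10 alone. The adjusted p was 0.200 with A0 replicate 3 as the only A0 library.

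Ier2, an immediate-early gene for a nuclear regulator of transcription (gene 15936, chromosome 8, 84661331 to 84662852), had the smallest p. Its levels were 22.5, 20.4 and 21.2 CPM in BA10 and 7.17, 8.18 and 6.71 CPM in BA0. They were 12.4, 12.3 and 10.4 CPM in A10 and 20.0, 16.8 and 17.1 CPM in A0. Replicates lay close together and the 4 groups did not overlap, with BA0 lowest, then A10, A0 and BA10. The change was 1.54 in BA10 compared to BA0 (SE 0.12, adjusted p = 4.24e-04) and -0.62 in A10 compared to A0 (SE 0.12, adjusted p = 0.0404), and the interaction was 2.16 (SE 0.17, adjusted p = 4.00e-04 by edgeR). The interaction of Ier2 was called under each alternative tried, at 1.84 to 2.24. Its call in A10 compared to A0 is among the 460, an unstable count that was 2 with the trends removed. The transcript has 1522 bases and 60.9% GC, against medians of 3411.5 bases and 49.5% over all genes.

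Jund, another AP-1 subunit gene that is expressed at a steady level in most tissues (gene 16478, chromosome 8, 70698949 to 70700616), showed the same crossing at a smaller size. It was at 37.0, 35.0 and 29.6 CPM in BA10 and at 24.5, 23.8 and 25.5 CPM in BA0. In A10 it was at 25.5, 24.3 and 20.6 CPM, and in A0 at 37.0, 39.1 and 34.0 CPM. BA10 and A0 overlapped at the higher level and BA0 and A10 at the lower. The interaction was 1.10 (SE 0.16, adjusted p = 0.0297 by edgeR), with 0.46 in BA10 compared to BA0 (SE 0.11, adjusted p = 0.526) and -0.64 in A10 compared to A0 (SE 0.11, adjusted p = 0.0404). Its call in A10 compared to A0 is likewise among the 460, a count that was 2 with the trends removed. The transcript of Jund is also short and rich in GC (1668 bases, 67.1%). The call of the interaction was lost after removal of the trends (0.68, adjusted p = 0.277) and in 8 of the 12 fits that each left out a library. The adjusted p was 0.430 with A0 replicate 3 as the only A0 library.

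**Figure D2:**
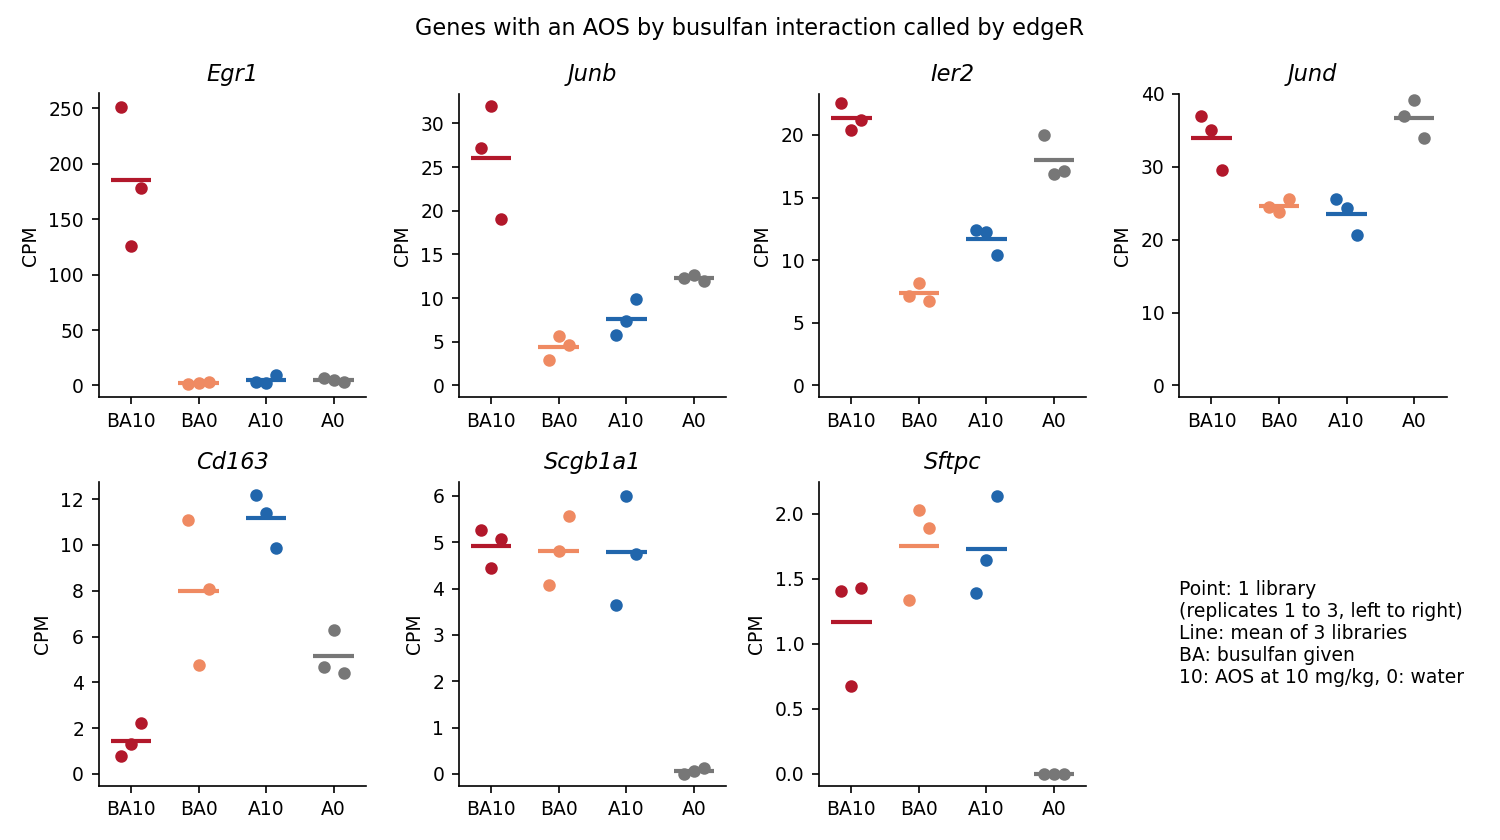
CPM of the 7 genes with a called interaction, with a point for each of the 3 libraries of BA10, BA0, A10 and A0 and a line at the group mean. Egr1 is at 126 to 251 CPM in BA10, Junb, Ier2 and Jund cross over, Cd163 is lowest in BA10, and Scgb1a1 and Sftpc are at or near 0 in A0.

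The promoters of Junb, Fos and Nr4a1 are shown because these genes rose in BA10 compared to BA0 and because transcription of such genes is classically driven through sites for CREB, serum response factor and AP-1. Sequences are the 250 bases before the RefSeq start (GRCm38.p6), read 5′ to 3′ on the strand of the gene, with capitals for TGACG or its complement CGTCA, the core of the CREB element. Junb is at chr8:84978749-84978998 on the minus strand, Fos at chr12:85473640-85473889 on the plus strand and Nr4a1 at chr15:101266596-101266845 on the plus strand.
Junb: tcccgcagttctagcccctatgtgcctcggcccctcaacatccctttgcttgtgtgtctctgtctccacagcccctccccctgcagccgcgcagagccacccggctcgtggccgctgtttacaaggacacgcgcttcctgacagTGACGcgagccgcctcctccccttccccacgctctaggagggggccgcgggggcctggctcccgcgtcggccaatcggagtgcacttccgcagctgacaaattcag
Fos: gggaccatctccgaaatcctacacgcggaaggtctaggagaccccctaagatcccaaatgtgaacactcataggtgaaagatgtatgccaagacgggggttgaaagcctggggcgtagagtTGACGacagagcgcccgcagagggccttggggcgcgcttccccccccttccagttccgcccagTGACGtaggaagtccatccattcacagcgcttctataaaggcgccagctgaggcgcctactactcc
Nr4a1: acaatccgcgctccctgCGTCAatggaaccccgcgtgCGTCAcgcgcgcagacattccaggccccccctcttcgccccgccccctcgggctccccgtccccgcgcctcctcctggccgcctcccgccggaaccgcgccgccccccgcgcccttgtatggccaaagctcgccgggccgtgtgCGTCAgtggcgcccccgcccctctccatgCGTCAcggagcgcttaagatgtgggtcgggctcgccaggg

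Of the 7 called genes, 3 had a promoter in the table (Junb, Jund and Cd163). The RefSeq starts used for Jund and Nr4a1 differ from their gene starts in GENCODE, so these windows say nothing of the sequence before the other start. None of Junb, Jund, Cd163, Fos and Nr4a1 held the full CREB element (TGACG followed by TCA), the AP-1 site TGANTCA or the CArG box of serum response factor between 250 bases before and 50 after the start, searched on both strands. Over all 32851 promoters in the table, 1.79% held the first, 7.81% the second and 1.63% the CArG box. Sequence farther from the start was not searched, so the absence of these sites holds for this window only. The core TGACG was searched after the sequences were seen. It occurred 4 times in Nr4a1, a number reached in 0.231% of all promoters, 2 times in Fos (5.01%), 1 time in Junb (20.8%) and not in Jund or Cd163. These matches are letters in a window of the reference and do not show that a factor was bound.

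The immediate-early list as a whole was higher in the BA10 livers. Of 38 list members tested, 4 were called higher and 0 lower (0.0308% and 0.0231% of all genes), 23 were higher at an unadjusted p under 0.05 (7.08% of all genes) and 34 had a positive interaction. Their median interaction was 1.07, against -0.05 over all genes tested. The list was chosen with earlier results of these data known, so its direction is not independent evidence. The mean of the list, relative to the mean of the 12 libraries, was 1.11, 0.90 and 0.60 log2 units in BA10. It was -0.72, -0.23 and -0.34 in BA0, -0.47, -0.33 and 0.02 in A10 and -0.13, -0.27 and -0.13 in A0. BA10 lay above the 9 other libraries, which overlapped. In 27 of 38 genes each BA10 library was above each BA0 library, against 5.54% of all genes tested. By level, 23 of the 38 differed in BA10 alone and 8 crossed, against 8.64% and 11.7% of all genes. The median was 1.02 after removal of the trends, 1.26 with A0 replicate 3 as the only A0 library and 0.98 to 1.22 whichever library was omitted.

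Several members of the list had large interactions that were not called. Nr4a1, an orphan nuclear receptor gene, was at 6, 9.67 and 3.80 CPM in BA10 and at 0.583, 0.638 and 0.574 CPM in BA0. In A10 it was at 0.638, 0.647 and 1.33 CPM, and in A0 at 1.07, 0.943 and 0.909 CPM. It was thus high in BA10 alone, with an interaction of 3.58 (SE 0.56, adjusted p = 0.0634 by edgeR). The AP-1 gene Fos, named after its values were seen, was at 26.2, 16 and 12.8 CPM in BA10 and at 0.233, 0.928 and 0.688 CPM in BA0. It was at 0.696, 0.647 and 2.60 CPM in A10 and at 0.535, 0.943 and 0.909 CPM in A0. Its change was 4.88 in BA10 compared to BA0 (adjusted p = 0.0061) and 0.71 in A10 compared to A0, and the interaction of 4.16 missed the threshold (SE 0.83, adjusted p = 0.151). A10 replicate 3 was the highest A10 library for Fos, Egr1, Junb and Nr4a1, and without it Fos (5.13, adjusted p = 0.0210) and Nr4a1 (4.02, adjusted p = 0.0227) were called. Jun had an interaction of 2.67 (SE 0.60, adjusted p = 0.163), with 111, 52.9 and 42.6 CPM in BA10 and 8.51, 27.5 and 22.7 CPM in BA0. Jun was also lower in A10 than in A0 without overlap, at 12.8, 16.7 and 15.7 CPM in A10 and 36.9, 21.5 and 23.9 CPM in A0. The feedback regulator genes Trib1 (1.61, SE 0.32, adjusted p = 0.151) and Ppp1r15a (0.98, SE 0.19, adjusted p = 0.151), which directs the phosphatase that restores translation after stress, had BA10 above the other 3 groups. The members with a negative interaction were Pim1, Klf6, Klf4 and Sgk1, at -0.67 to -0.02, of which Klf4 and Sgk1 changed sign under some alternatives.

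**Figure D3:**
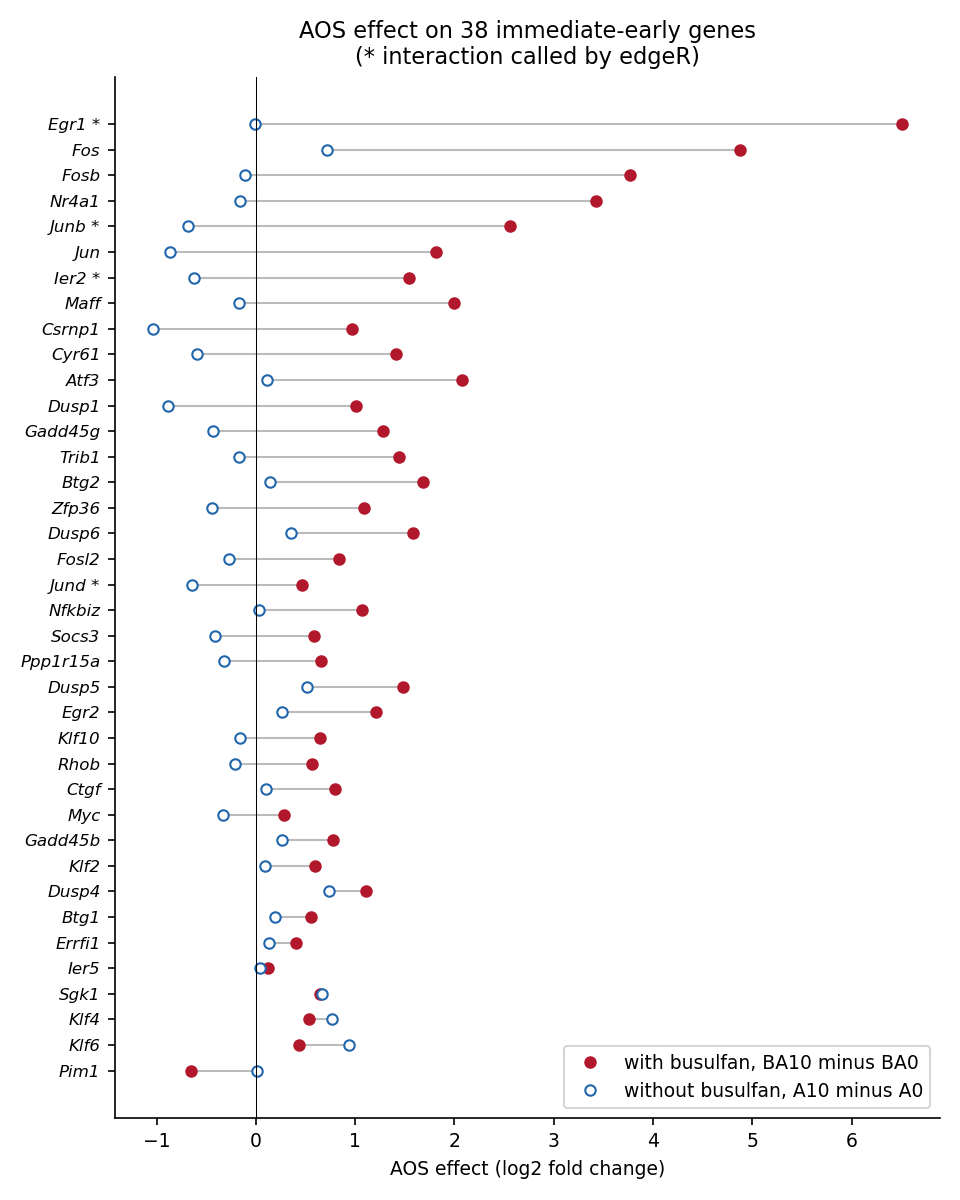
AOS effect (log2 fold change) with busulfan, BA10 minus BA0 (filled), and without busulfan, A10 minus A0 (open), for 38 immediate-early genes ordered by their interaction, with a star for a called interaction. The filled point lies to the right of the open point in 34 of 38 genes.

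The inflammatory genes Il1b and Cxcl1 were also highest in BA10, though neither was called for the interaction. Il1b, a cytokine gene of activated macrophages, was at 7.10, 6.36 and 5.35 CPM in BA10 and at 0.816, 0.870 and 1.78 CPM in BA0. It was at 2.09, 1.59 and 1.44 CPM in A10 and at 1.14, 2.51 and 1.94 CPM in A0. BA10 lay above the 9 other libraries, with an interaction of 2.56 (SE 0.48, adjusted p = 0.151 by edgeR). The neutrophil chemokine gene Cxcl1 was at 9.24, 36.9 and 12.4 CPM in BA10 and at 0.706 to 2.95 CPM in the 9 other libraries (interaction 3.66, SE 0.88, adjusted p = 0.170). Their list of inflammatory cytokines, chemokines and receptors did not share this direction. Of its 54 genes tested, 0 were called, 4 were higher (7.08% of all genes) and 10 lower (8.38%) at an unadjusted p under 0.05, 22 had a positive interaction and the median was -0.11.

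A pair of liver genes of the fasting response, G6pc and Igfbp1, had their highest levels in the same group. G6pc, the enzyme that releases glucose from hepatocytes, was at 1406, 1346 and 1078 CPM in BA10 and at 655, 648 and 1022 CPM in BA0. In A10 and A0 it was at 548 to 760 CPM. The interaction was 0.91 (SE 0.26, adjusted p = 0.194 by edgeR). Igfbp1, an insulin-repressed binding protein of growth factors, was at 339, 354 and 231 CPM in BA10, 41.5, 63.1 and 86.9 CPM in BA0, 22.3, 19.9 and 55.5 CPM in A10 and 15.1, 31.5 and 25.9 CPM in A0. BA10 stood apart for both genes, and the interaction of Igfbp1 was 1.84 (SE 0.57, adjusted p = 0.206). Over the 24 glucose and glycogen genes tested, 0 were called and the median was 0.20. At an unadjusted p under 0.05, 5 of them were higher (7.08% of all genes) and 1 lower (8.38%). Over the 21 glucocorticoid and fasting targets, which also hold both genes, 0 were called, 9 had a positive interaction and the median was -0.08. At an unadjusted p under 0.05, 2 of these were higher (7.08% of all genes) and 3 lower (8.38%).

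Heat shock and chaperone genes had their highest levels in BA10 as well, but their interaction was weaker. Of 17 genes tested 0 were called, 4 were higher (7.08% of all genes) and 0 lower at an unadjusted p under 0.05, 16 had a positive interaction and the median was 0.44. In 12 of the 17 each BA10 library was above each BA0 library, against 5.54% of all genes. The list mean was 1.14, 0.55 and 0.64 in BA10, -0.37, 0.13 and 0.23 in BA0, -0.98, -0.32 and 0.23 in A10 and -0.52, 0.02 and -0.75 in A0. BA10 was thus above the other groups, and A10 replicate 3 was again the highest of its group. Dnajb1, a co-chaperone of Hsp70, was at 195, 84.0 and 101 CPM in BA10 and 23.1, 39.5 and 43.1 CPM in BA0, with 16.9 to 40.3 CPM in A10 and 16.2 to 39.4 CPM in A0 (interaction 1.83, SE 0.59, adjusted p = 0.209 by edgeR). Without A10 replicate 3 the median of the list was 0.71 and 9 genes were higher at an unadjusted p under 0.05. Over all genes 1938 of 12918 passed this threshold in that fit, in either direction.

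Cd163, a receptor of macrophages that clears haemoglobin bound to haptoglobin (gene 93671, chromosome 6, 124304656 to 124330527 of mm10), was the called gene that was low in BA10 alone. It was at 0.796, 1.29 and 2.2 CPM in BA10 and at 11.1, 4.76 and 8.09 CPM in BA0. Without busulfan it was at 12.2, 11.4 and 9.88 CPM in A10 and at 4.68, 6.29 and 4.42 CPM in A0. Each pair stood apart, and in opposite directions. The change was -2.46 in BA10 compared to BA0 (SE 0.36, adjusted p = 0.0421) and 1.12 in A10 compared to A0 (SE 0.33, adjusted p = 0.0731), and the interaction was -3.58 (SE 0.49, adjusted p = 0.0238 by edgeR). The call held after removal of the trends (-3.45, adjusted p = 0.0263) but was lost in 7 of the 12 fits that each left out a library (adjusted p up to 0.102), with A0 replicate 3 as the only A0 library (0.430) and with a replicate block (0.0908).

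The other Kupffer cell and macrophage markers did not separate as Cd163 did. Of 25 tested, 1 was called lower (0.0231% of all genes) and the median was -0.44. At an unadjusted p under 0.05, 5 were lower (8.38% of all genes) and 0 were higher (7.08%). The summed level of the list was 631 to 942 CPM in BA10, 688 to 920 CPM in BA0, 619 to 963 CPM in A10 and 488 to 683 CPM in A0. These ranges overlapped between BA10, BA0 and A10. In BA10 compared to BA0 the median of the list was -0.03, and Cd163 was the only member whose groups did not overlap (5.25% of all genes were lower without overlap). Mrc1, the mannose receptor gene, differed instead in A0, at 45.6 to 55.8 CPM in BA10, 35.9 to 56.7 CPM in BA0, 35.9 to 48.2 CPM in A10 and 16.1 to 20.6 CPM in A0 (interaction -1.0, SE 0.25, adjusted p = 0.183 by edgeR). Slc40a1, the iron exporter gene of macrophages, had an interaction of -0.83 (SE 0.18, adjusted p = 0.163). In bulk libraries fewer cells of a type and less RNA per cell cannot be told apart.

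The remaining called genes, Scgb1a1 and Sftpc, differed in A0 alone, and both are products of lung epithelium. Scgb1a1 encodes the secretoglobin of club cells (gene 22287, chromosome 19, 9083636 to 9087958) and Sftpc surfactant protein C of alveolar type 2 cells (gene 20389, chromosome 14, 70520949 to 70524081). Scgb1a1 was at 5.26, 4.45 and 5.07 CPM in BA10, 4.08, 4.81 and 5.56 CPM in BA0 and 3.65, 6 and 4.74 CPM in A10. In A0 it had 0, 1 and 2 reads. The interaction was -6.06 (SE 0.52, adjusted p = 7.04e-04 by edgeR), and the ratio of A10 to A0 was 75.6 (95% interval 25.6 to 369 from an exact binomial interval of 247 and 3 reads, which covers counting error only). Sftpc had 23, 13 and 26 reads in BA10, 23, 35 and 33 in BA0, 24, 28 and 37 in A10 and 0 in each A0 library (adjusted p = 0.00995). With a floor of 3 reads over the A0 group it was at least 27.2-fold higher in A10 and at least 27.7-fold higher in BA0 than in A0. In BA10 compared to BA0 neither gene was called (0.03 for Scgb1a1, SE 0.25, and -0.59 for Sftpc, SE 0.35), and for both the A0 libraries were below the 9 others. With A0 replicate 3 as the only A0 library Scgb1a1 was still called (adjusted p = 0.0413) and Sftpc was not (adjusted p = 0.231). Without BA0 replicate 2 and A10 replicate 3, the adjusted p of Sftpc was 0.0507, and with a replicate block it was 0.0531.

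These were the only 2 genes of the 12979 with at most 3 reads in each A0 library and at least 10 in each of the 9 others, and no gene had such a pattern in BA10, BA0 or A10 or the reverse pattern in any group. Of 10 lung markers in the table, 4 passed the filter on low counts. Sftpa1, another surfactant gene, had 22, 19 and 26 reads in BA10, 12, 10 and 13 in BA0, 20, 22 and 17 in A10 and 6, 8 and 14 in A0, and its interaction of -0.07, whose sign depends on the setting, was not called (adjusted p = 0.954). Sftpb had 47 reads in the 9 other libraries and 2 in the A0 libraries, but did not pass the filter. Hopx, a homeobox gene, was not lower in A0, with 791, 651 and 352 reads there and 348 to 523 reads in the others. Nkx2-1, the defining transcription factor of lung epithelium, had 3 reads over the 12 libraries. The summed level of the 10 markers was 27.7 to 35.9 CPM in BA10, 30.5 to 36.9 CPM in BA0, 28.5 to 39.0 CPM in A10 and 22.7 to 53.6 CPM in A0, most of it Hopx. The part of lung RNA in these calls was not tested.

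Among the genes with an unadjusted p under 0.05 the most frequent pattern was a level that differed in A0 alone. A group was said to stand alone where its mean log2 CPM lay outside the 3 others by more than their own range, and a gene to cross where AOS and busulfan each changed direction with the other. Of the 2006 genes, 1262 (62.9%) differed in A0 alone and 468 (23.3%) crossed. A further 95 (4.74%) differed in A10 alone, 87 (4.34%) in BA10 alone and 61 (3.04%) in BA0 alone, while 33 fitted none. Among all 12979 genes tested, 38.2% differed in A0 alone and 11.7% crossed. The shares in A10, BA10 and BA0 alone were 7.91%, 8.64% and 6.78% of all genes, above those among the 2006. All 3 A0 libraries had 0 to 2 reads of Scgb1a1 and 0 of Sftpc, unlike the 9 others, and the labels give no batch, so water without busulfan and any separate handling of the A0 group cannot be told apart. In 82.8% of the 2006 genes the change with AOS had opposite signs with and without busulfan, against 50.4% of all genes. The interaction is the difference between these changes, so genes chosen by its p tend to have opposite signs. That excess, like the excess of the crossing class, is thus in part set by the choice of genes. The 566 genes highest in A0 had a median transcript length of 1778 bases and a GC content of 54.2%, and the 696 genes lowest in A0 had 5345 bases and 43.6%. After removal of the length and GC trends 1223 genes had an unadjusted p under 0.05, and 535 of them differed in A0 alone. The number that differed in BA10 alone was then 112. The shares of these patterns among all genes with the trends removed are not given here, so neither count is read as an excess. With A0 replicate 3 as the only A0 library, 780 genes had an unadjusted p under 0.05.

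**Figure D4:**
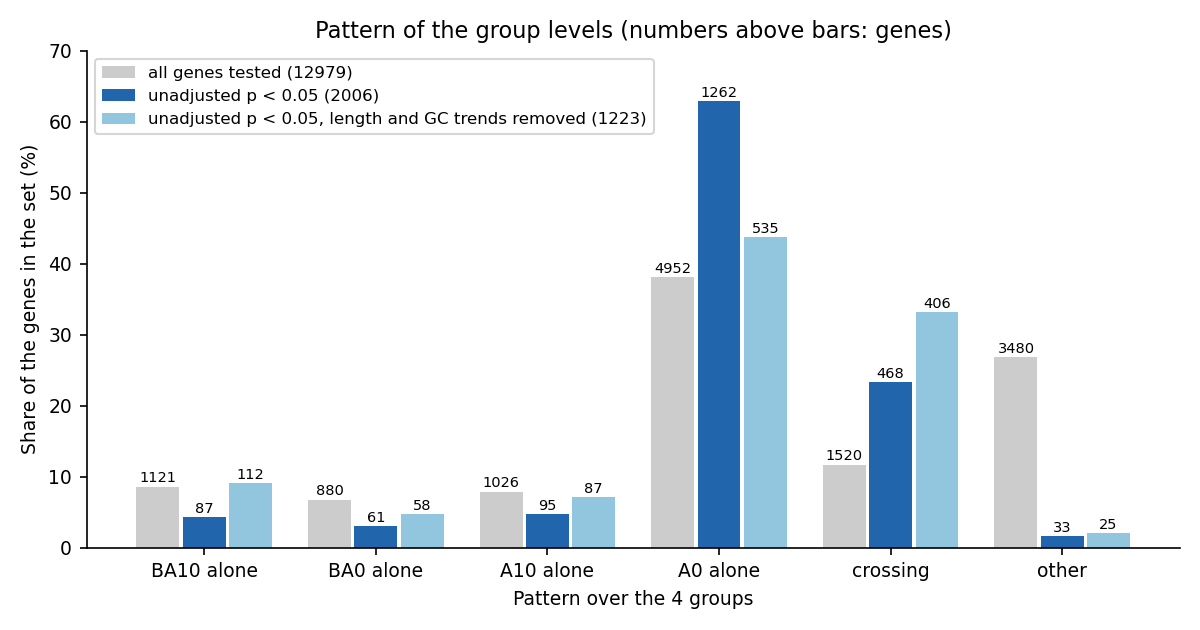
Share of genes in each pattern over the 4 groups among all 12979 genes tested, among the 2006 with an unadjusted p under 0.05 and among the 1223 with an unadjusted p under 0.05 once the length and GC trends were removed, with the number of genes above each bar. The A0 alone class falls to 535 genes with the trends removed, while BA10 alone has 112. The bars for all genes are from the fit that left the trends in.

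Genes for energy metabolism and translation lay on the positive side, many of them with A0 apart, and endothelial markers on the negative side. Of 76 nuclear genes for respiratory chain subunits, 0 were called and 51 were higher at an unadjusted p under 0.05 (7.08% of all genes). Their median interaction was 0.42, and 56 of the 76 differed in A0 alone (38.2% of all genes). Uqcr11 of complex III was at 84.0, 83.6 and 71.7 CPM in BA10, 70.7, 74.5 and 69.4 CPM in BA0, 77.7, 69.2 and 64.7 CPM in A10 and 105, 118 and 93.6 CPM in A0. Of 79 cytosolic ribosomal protein genes, 43 were higher at an unadjusted p under 0.05 (7.08% of all genes) and 0 were called (median 0.41). With the trends removed these counts were 21 of 76 and 16 of 79, and the medians 0.23 and 0.21 against 0.02 over all genes. Of 21 endothelial markers, 5 were lower at an unadjusted p under 0.05 (8.38% of all genes), 0 were called and the median was -0.38. In 16 of the 21 each A10 library was above each A0 library, against 14.2% of all genes. Kdr, the main receptor of vascular endothelial growth factor, was at 45.4, 47.3 and 52.9 CPM in BA10, 34.8, 37.8 and 47.3 CPM in BA0, 42.5, 34.6 and 42.0 CPM in A10 and 21.4, 20.4 and 22.9 CPM in A0. A0 alone was low for this gene, in each of its libraries, and the cause of this was not tested. Its interaction was -0.60 (SE 0.18, adjusted p = 0.203 by edgeR). The median of the endothelial list was -0.30 with the trends removed and -0.33 with A0 replicate 3 as the only A0 library.

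Fewer genes stood alone in BA0 (61) or in A10 (95) than in A0 (1262) at an unadjusted p under 0.05. Those in BA0 and A10 were 3.04% and 4.74% of the 2006 genes, against 6.78% and 7.91% of all genes, and none was called. Selenbp2, a selenium-binding protein gene with male-biased expression in liver, was at 801, 735 and 1481 CPM in BA10 and 319, 207 and 344 CPM in BA0, with 1706, 1146 and 940 CPM in A10 and 2376, 2148 and 2104 CPM in A0. It was lowest in BA0, and its log2 change with AOS was 1.79 with busulfan and -0.81 without, neither of them called. The interaction was 2.60 (SE 0.42, adjusted p = 0.0767 by edgeR). Related Selenbp1 reads may be shared with it. Ntrk2, a receptor gene of neurotrophins, was at 0.122 to 0.22 CPM in BA10, at 5.42, 11.1 and 0.746 CPM in BA0, at 0.174 to 0.635 CPM in A10 and at 0 in A0, so that no fold is given. Trim25, a ubiquitin ligase gene of antiviral signalling, was at 39.1, 38.2 and 2.43 CPM in A10, against 0.201 to 0.816 CPM in the 9 other libraries. A10 replicate 3 was far below the other A10 libraries, and without it the interaction of -6.84 was called (adjusted p = 4.03e-04), while with it the value was -6.30 (SE 1.46, adjusted p = 0.168). The metallothionein gene Mt1 was likewise highest in A10, at 40.3, 44.7 and 50 CPM, against 3.33 to 32.0 CPM elsewhere (interaction -3.30, SE 1.04, adjusted p = 0.206). Mt2 was at 20.2, 28.4 and 15.5 CPM in A10, where its lowest library met BA0 replicate 2 at 15.5 CPM (-3.69, SE 1.21, adjusted p = 0.213).

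Fatty acid oxidation genes leaned towards A10. Of 28 tested, 0 were called, 6 were lower (8.38% of all genes) and 0 higher at an unadjusted p under 0.05, and 11 differed in A10 alone (7.91% of all genes), with a median interaction of -0.37. Acadm, the medium-chain dehydrogenase of this pathway, was at 246, 214 and 221 CPM in BA10, 207, 244 and 200 CPM in BA0, 342, 288 and 250 CPM in A10 and 156, 216 and 196 CPM in A0. It was highest in A10, while the other 3 groups overlapped, with an interaction of -0.57 (SE 0.21, adjusted p = 0.238 by edgeR). Ppara, the nuclear receptor gene that controls these enzymes, had an interaction of -0.83 (SE 0.19, adjusted p = 0.168). The median of the list rests on few libraries, as it was -0.19 without BA0 replicate 2 and -0.09 without A10 replicate 3.

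Interferon-stimulated genes had the most negative median of the lists apart from the lung markers, but a few libraries carried it. Of 40 tested, 0 were called, 12 were lower at an unadjusted p under 0.05 (8.38% of all genes) and 38 had a negative interaction (54.6% of all genes), with a median of -1.96. The list mean was 1.6 in BA0 replicate 2, 1.10 in A10 replicate 3, 0.70 in BA0 replicate 3 and 0.55 in BA10 replicate 2, and it was -0.74 to -0.19 in the 8 other libraries. High libraries thus occurred in 3 of the 4 groups. Ifit1, an inhibitor of viral translation, was at 1.96, 5.79 and 1.65 CPM in BA10, 2.04, 48.2 and 7.40 CPM in BA0, 3.89, 2.82 and 14.5 CPM in A10 and 2.01, 2.89 and 1.94 CPM in A0 (interaction -4.23, SE 1.42, adjusted p = 0.220 by edgeR). Without BA0 replicate 2 and A10 replicate 3, a choice made after seeing the data, the median was -0.16 and 1 gene was lower at an unadjusted p under 0.05. Over all genes 1712 of 12853 passed this threshold in that fit, in either direction.

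**Figure D5:**
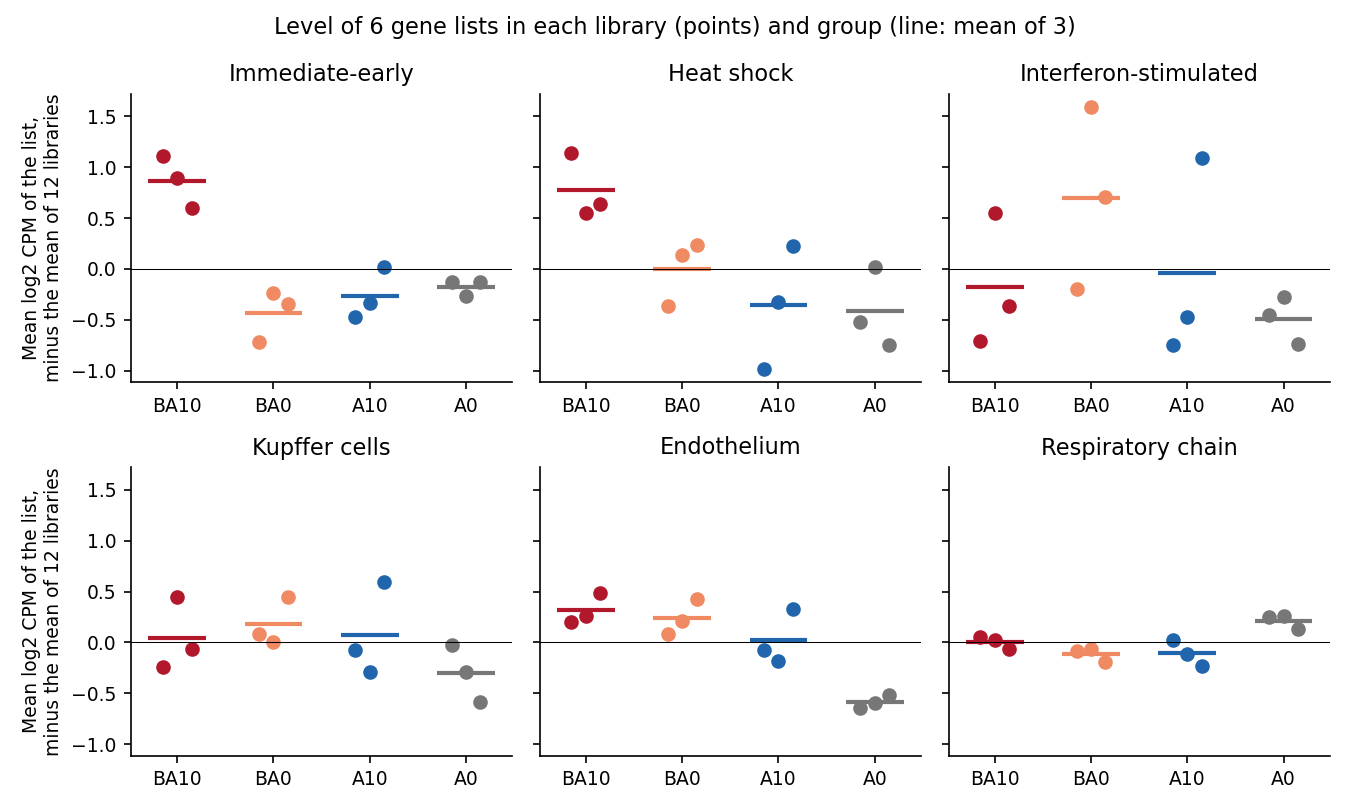
Mean log2 CPM of 6 gene lists in each library, minus the mean over the 12 libraries, for BA10, BA0, A10 and A0, with points for libraries and lines for group means. The immediate-early list is at 0.60 to 1.11 in BA10, the endothelial list at -0.64 to -0.52 in A0, and the interferon-stimulated list is spread within groups from -0.19 to 1.6 in BA0.

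Among sex-biased genes none was called. Of 28 male-biased genes, 7 were higher at an unadjusted p under 0.05 (7.08% of all genes) and 0 were called (median 0.32). Of 19 female-biased genes, 6 were lower at an unadjusted p under 0.05 (8.38% of all genes) and 0 were called (median -0.84). The female-biased list mean was 0.65, 0.34 and -0.04 in BA10, 0.28, 1.59 and 0.15 in BA0, 0.65, -0.16 and -0.41 in A10 and -1.24, -1.18 and -0.63 in A0. A0 was the lowest group and BA0 replicate 2 the highest library. The male-biased list mean was 0.01, -0.35 and -0.14 in BA10, 0.05, -0.85 and 0.03 in BA0, -0.38, 0.00 and 0.09 in A10 and 0.65, 0.56 and 0.33 in A0, so that A0 was the highest group. The male-biased fatty acid elongase gene Elovl3 was at 299, 399 and 442 CPM in BA10, 365, 136 and 209 CPM in BA0, 75, 108 and 339 CPM in A10 and 697, 700 and 508 CPM in A0. It crossed over, with an interaction of 2.55 (SE 0.70, adjusted p = 0.187 by edgeR), and it was called without A10 replicate 3 (3.47, adjusted p = 0.0295). Counts of Mup genes and of the Cyp2 families are uncertain, because near-identical copies can share reads.

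Of the 12 transcripts that the study had followed by q-RT-PCR, 1 was called for the interaction, Egr1 (0.0308% of all genes were called higher). At an unadjusted p under 0.05, 3 were higher (7.08% of all genes) and 6 lower (8.38%). Those that were lower included the receptor genes Tlr4 (-1.04, SE 0.44, adjusted p = 0.293 by edgeR) and Tlr7 (-1.71, SE 0.77, adjusted p = 0.322). Tlr4, a receptor of bacterial lipopolysaccharide, was at 4.41, 4.24 and 3.97 CPM in BA10, 3.85, 2.55 and 5.51 CPM in BA0, 3.02, 2.59 and 5.03 CPM in A10 and 1.87, 1.32 and 1.70 CPM in A0. It was low in A0 alone, and BA10 overlapped with BA0. Of 11 genes listed for the proteins that the study had stained, 8 passed the filter on low counts, here as RNA and not as protein. Of these 8, 0 were called and the median was -0.06. At an unadjusted p under 0.05, 1 of them was lower (8.38% of all genes), the interleukin receptor gene Il22ra1 (-0.82, SE 0.27, adjusted p = 0.212 by edgeR).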

How the data were processed

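Poly(A) RNA from liver was sequenced in 12 libraries, 3 in each of the groups BA10, BA0, A10 and A0. The authors mapped the reads to reference genes with SOAPaligner (build mm10, per the labels), and deposited an estimated count per gene and library. How the counting was done, whether it used strand, and with which annotation, was not given in the sources used here. Whole numbers (within 1e-06) made up 78.6% to 80.3% of each library, and the estimated counts as deposited were rounded. The RPKM values, which the authors scaled by length and depth, were used for marker levels only. A further 8 columns with means of groups went unused. Gene models for coordinates, GC content and length were those of GENCODE M21, matched through the Entrez identifier (16373 genes, 91.6%).

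Genes with at least 10 reads in 3 libraries were kept. Using edgeR 4.0.16 (R 4.3.3; alternatives in DESeq2 1.42.0 and limma 3.58.1), a quasi-likelihood model with TMM factors and a mean for each group was fitted to the 12 libraries (8 residual degrees of freedom, prior 3.48, common biological coefficient of variation 0.203). The contrast was (BA10 - BA0) - (A10 - A0), with Benjamini-Hochberg adjustment over 12979 genes, and genes were called at an adjusted p under 0.05. The pairs were tested in the same fit and share their groups. The SE of a log2 value is its size divided by the square root of the F statistic. CPM was scaled by the TMM factors, and log2 CPM for group patterns and list means used a prior count of 2. The study itself used DEGseq on pairs of groups, which was not repeated.

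The genes, lists and tests were chosen with earlier results of these data known. Named genes were the called genes, those of smallest p with a mean of at least 1 CPM in each direction and in each pattern, up to 4 members of smallest p in each list, and the transcripts and proteins the study followed. Fos, Pim1, Klf6, Klf4, Sgk1, Sftpb and Nkx2-1 fall outside this rule and were named after their values were seen. Lists are described by counts and medians.

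On simulated counts with the same depth, edgeR recovered 23 of 100 genes with an interaction of 1 on the log2 scale and 90 of 100 with 2, with 7 false calls among 12825 genes. DESeq2 recovered 25 and 88 with 14 false calls, and limma voom 22 and 89 with 5. The counts were drawn at the trended dispersion, with no spread of dispersion between genes of like level and no length or GC trend. Only BA10 was changed, in genes with a mean of at least 1 CPM. These numbers therefore do not give the recovery or error rates in the real libraries. The alternatives were other scaling factors, tools and filters, a replicate block, removal of per-library splines over length and GC content (3 inner knots each, 12288 genes, 94.7%), robust empirical Bayes, leaving out Mup genes and Alb, and leaving out libraries. Promoters came from RefSeq (GRCm38.p6), whose table holds 27025 genes.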

Additional observations from a re-analysis of the deposited data

Results flagged for a closer look

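For 7 genes the change with AOS differed between livers with and without busulfan by the interaction test of edgeR. Among the genes with a positive interaction, Ier2 had an adjusted p of 4.00e-04 (2.16 on the log2 scale), Junb of 0.00541 (3.24), Egr1 of 0.00541 (6.52) and Jund of 0.0297 (1.10). Among those with a negative interaction, Scgb1a1 had an adjusted p of 7.04e-04 (-6.06), Sftpc of 0.00995 (no reads in A0) and Cd163 of 0.0238 (-3.58). By pattern, Egr1 and Cd163 differed in BA10 alone, Scgb1a1 and Sftpc differed in A0 alone, and Ier2, Junb and Jund crossed. The patterns are not exclusive. In Cd163, as in the crossing genes, each AOS comparison separated, in opposite directions. The BA10 libraries of Ier2 and Junb also lay above all other libraries. Ier2, Junb and Jund all lie on chromosome 8.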

How the results depend on the processing

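Of the genes named in the report, Klf4, Sgk1, Sftpa1 and Hopx, none of them called in any fit, changed direction under some alternatives, and the others did not. Sgk1 was at 0.0030 with RLE factors, 0.0128 with upper-quartile factors, 0.0028 with DESeq2 with or without its independent filtering, 0.0668 with limma voom, 0.0072 with no filter, 0.0036 without Mup genes and Alb and 0.0283 with the trends removed, where Sftpa1 was at 0.0649. With A0 replicate 3 as the only A0 library Klf4 was at 0.32, Sgk1 at 0.27, Sftpa1 at 0.48 and Hopx at -0.32, and without BA0 replicate 2 and A10 replicate 3 Klf4 was at 0.53. With each library left out, Klf4 was at -0.60 to 0.16, Sgk1 at -0.28 to 0.34 and Sftpa1 at -0.44 to 0.16. Scaling by RLE or upper-quartile factors, robust empirical Bayes, the other filters and leaving out Mup genes and Alb kept all 7 calls. DESeq2 gave an adjusted p to 6432 genes and called 168 higher and 104 lower, and of the 7 genes only Ier2, Egr1 and Jund were given an adjusted p, all under 0.05. It called 38 genes in BA10 compared to BA0 and 1296 in A10 compared to A0. Without its independent filtering, an alternative chosen after seeing the data, DESeq2 called 118 higher and 76 lower genes, 38 in BA10 compared to BA0 and 1181 in A10 compared to A0, and all 7 genes were among its calls. With no filter on low counts 7 genes were higher, 11 were called in BA10 compared to BA0 and 20 in A10 compared to A0. With the length and GC trends removed 2 genes were called in A10 compared to A0. Of the 1223 genes then at an unadjusted p under 0.05, 535 differed in A0 alone. With group medians in place of means 74 genes fitted no pattern. With A0 replicate 3 as the only A0 library, which assumes that it varies like the other groups, 1 gene was higher, 1 was lower and 1 was called in A10 compared to A0. Without BA0 replicate 2 and A10 replicate 3, chosen after seeing the data, 8 genes were higher, 14 were called in BA10 compared to BA0 and 7 in A10 compared to A0.

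With each library left out in turn, 3 to 103 genes were higher and 2 to 149 lower, 3 to 12 were called in BA10 compared to BA0 and 1 to 1701 in A10 compared to A0. The highest counts but the 12 came without A0 replicate 3 (103, 149 and 1701), and leaving out any other library left 1 to 8 genes called in A10 compared to A0. Of the 7 genes, Ier2, Scgb1a1, Junb, Egr1 and Sftpc were called in 12 of these 12 fits, Cd163 in 5 and Jund in 4.

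The replicate numbers are shared between groups, but only 3 of 18 same-number pairs had a correlation of deviations above 0.1 (median 0.02), and 6 of 12 libraries correlated best with their own number, so the numbers were not taken as pairs. With the replicate block 4 genes were higher and 2 lower, Sftpc (adjusted p = 0.0531) and Cd163 (0.0908) were not called, and 5 and 515 genes were called in BA10 and A10 compared to their groups without AOS. With the replicate block and the trends removed together 5 were higher and 3 lower, and 19 were called in A10 compared to A0. Sgk1 was at 0.0130 with the replicate block and 0.0594 with the block and the trends removed, where Sftpa1 was at 0.0358. In the simulated counts, with 3 libraries per group, most interactions of 1 on the log2 scale were missed.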
